A study of Mus musculus with 9 samples.

Results

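The 4 structural RNAs described here were followed across 9 RNA libraries of mouse embryonic stem cells: Rn45s, the ribosomal RNA precursor, Rpph1, the RNA subunit of RNase P, Rmrp, the RNA subunit of RNase MRP, and Terc, the telomerase RNA. They are the 4 rows of the deposited gene table, out of 24132, that carry these gene symbols. The libraries came from RIPiT-seq, in which RNA that stays with a tagged protein through purification on FLAG and then on HA antibody beads is sequenced beside input RNA, and the study used it to ask which RNAs accompany WDR5, an adaptor of the MLL histone methylases. All cells were of the 129/B6 F1 hybrid strain, grown without feeders in the presence of LIF and fixed with formaldehyde before purification.

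The lines compared were 3 in number, and each gave 1 input library and 2 purified libraries (IPs). The empty vector line carried a lentivirus without any tagged WDR5, so that its IPs measure what the beads retain with no bait. The WT line carried FLAG-HA tagged wild type WDR5 from a human cDNA, and the F266A line carried FLAG-HA tagged human WDR5 with a phenylalanine replaced by alanine, the study's mutant for RNA binding. Each tagged line was a puromycin-selected clone chosen for a tagged protein level near that of endogenous WDR5, the F266A construct was also truncated at its N terminus, and no removal of endogenous Wdr5 is described for these lines. No line had a replicated input, and nothing in the labels says that both IPs of a line came from separate cultures, so p-values measure the spread between these libraries, which may be technical.

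Ribosomal RNA is made in the nucleolus by RNA polymerase I as 1 long precursor, which is cut and trimmed to the mature ribosomal RNAs. The Rn45s row is named for this precursor, and how many of its reads come from mature ribosomal RNA was not tested. RNase P removes the leader of transfer RNA precursors, and RNase MRP, which shares most of its proteins with RNase P, cuts the ribosomal RNA precursor. Telomerase copies a short template within its own RNA onto chromosome ends, a reaction on which dividing stem cells depend.

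The libraries held between 13658223 and 51087014 mapped reads, as recovered from the steps of the deposited values, and 2.15% to 5.25% of these lay on Rn45s if its row is 5833 bases long. Embryonic stem cell markers were present in every library, with a summed RPKM (reads normalized to gene length and to the mapped reads of the library) of 517 to 821 over 8 genes, whereas 6 fibroblast markers summed to 0.451 to 1.59, with Col3a1 and Lum at 0 everywhere. In the F266A line 8 primitive endoderm markers summed to 17.4 RPKM in the input, 5.63 in IP 1 and 23.8 in IP 2, against 3.10 to 4.48 in the other lines. The library labelled F266A IP 1 stood apart from its own line: the summed RPKM of the Y-linked genes Ddx3y, Uty and Eif2s3y was 4.43 in the F266A input and 7.21 in F266A IP 2 but 0.0383 in the library labelled F266A IP 1. The empty vector line lay at 7.41 to 9.48 and the WT line at 0.182 to 0.324. On other genes it lay on the side of its line: of 43 tested genes for which the F266A input and F266A IP 2 stood at least 1 on the log2(RPKM + 1) scale beyond the matching libraries of both other lines, it was beyond all 4 IPs of those lines for 39, though by the same margin for 7. How often this library lies beyond those 4 IPs over all genes was not counted, and a swap or mixing of samples was not tested. The label was kept, and "F266A IP 1" below means the library so labelled. The IP minus input differences, the comparisons of lines, the rule of the study and the list counts are also given without it, the centred and list values as alternatives chosen after seeing the data.

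Rpph1, Rmrp and Terc come from single short genes that could be placed on the mm9 genome, and their sequences show how far reads can be told apart. Models were matched through the names of the flanking protein-coding genes. Rpph1 is the 319-base model at chr14:51427124-51427442 on the minus strand, which starts 178 bases upstream of the divergent gene Parp2. The annotation holds 18 other models of the RNase P RNA family. Of these Rprl1 on chr6, Rprl2 on chr3 and Rprl3 on chr8 have rows of their own in the gene table, and they begin with nearly the same bases. They are shown over their first 120 bases, 5′ to 3′, because these carry the differences by which reads can be assigned; capitals in Rpph1 mark bases that differ in at least 1 relative, and capitals in a relative mark bases that differ from Rpph1.
Rpph1, chr14:51427323-51427442: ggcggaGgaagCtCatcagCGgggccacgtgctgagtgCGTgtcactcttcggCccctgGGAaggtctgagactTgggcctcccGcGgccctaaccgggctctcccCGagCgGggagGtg
Rprl1, chr6:69277045-69277164: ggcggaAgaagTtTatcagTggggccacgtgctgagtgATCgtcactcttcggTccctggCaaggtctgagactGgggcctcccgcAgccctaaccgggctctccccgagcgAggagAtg
Rprl2, chr3:22150296-22150415: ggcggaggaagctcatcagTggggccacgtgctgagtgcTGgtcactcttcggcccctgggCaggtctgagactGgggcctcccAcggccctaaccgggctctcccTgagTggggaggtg
Rprl3, chr8:3803239-3803358: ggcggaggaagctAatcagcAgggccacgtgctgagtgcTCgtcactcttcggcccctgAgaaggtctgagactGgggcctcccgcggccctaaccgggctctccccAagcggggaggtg

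In these 120 bases Rprl1 differed from Rpph1 at 13 positions, Rprl2 at 8 and Rprl3 at 7. No window of 50 bases, the read length, was identical between Rpph1 and any other place in mm9: all 270 windows of Rpph1 occurred once. When 2 mismatches were allowed, 54 of the 270 windows (20.0%) found a partner in Rprl3, 16 in Rprl1 and 12 in Rprl2, and none in the other 15 models. How the authors' alignment shared reads between these genes is not given in the sources used here, so the values of the 3 relatives are uncertain.

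Rmrp is the 271-base model at chr4:43505660-43505930 on the minus strand. Its first 159 bases overlap the start of Ccdc107 on the opposite strand, and the amplification kit does not mark strand. The remaining 112 bases, which belong to Rmrp alone, are shown with capitals on the longest runs that Rmrp has in common with Rpph1, each of 9 bases. With Rpph1, neither Rmrp nor Terc shared any window of 50 bases within 2 mismatches. The template of telomerase RNA was located in Terc, the 423-base model at chr3:96218360-96218782 on the minus strand, by the motif CTAACCCT, in capitals, which occurs once in the model over both strands and in 4 of 487 models of the miscellaneous RNA class (0.821%).
Rmrp, chr4:43505660-43505771: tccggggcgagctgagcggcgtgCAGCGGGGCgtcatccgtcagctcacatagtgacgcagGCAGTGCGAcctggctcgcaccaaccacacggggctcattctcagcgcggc
Terc, chr3:96218703-96218782: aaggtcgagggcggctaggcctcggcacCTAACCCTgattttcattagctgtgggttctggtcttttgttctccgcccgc

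All 222 windows of Rmrp and all 374 windows of Terc occurred once in mm9. The rows of the gene table were not of exactly these lengths: Rpph1 was 325 bases long there, Rmrp 275 and Terc 397, against models of 319, 271 and 423 bases, so the counts of windows belong to the models. Where the Terc row begins within its model was not determined, so the first bases shown for Terc may lie outside the row. Rn45s had no model of its own in the annotation used here, and no sequence or position is given for it. The shortest length that gave whole-number coverage for its row was 5833 bases. A length of 11667 bases gave it as well, and with that length 4.31% to 10.5% of the mapped reads would lie on Rn45s; its RPKM is the same under both. The RPKM of Ccdc107, the gene opposite Rmrp, was 0.812 to 1.35 over the 9 libraries, and Rmrp was at least 92.2 times above it in each. Parp2, the neighbour of Rpph1, lay at 6.68 to 13.1 RPKM, and Rpph1 was at least 30.5 times above it.

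Per length, the order of the 4 RNAs was the same in each of the 9 libraries, with Rn45s highest, then Rpph1, Rmrp and Terc. Rn45s was the row with the highest RPKM in every library. Rpph1 ranked between 4 and 18, Rmrp between 46 and 114, and Terc between 480 and 876 of all rows. In inputs the RPKM of Rn45s was 23.6 to 30.5 times that of Rpph1, whereas in IPs it was 5.50 to 8.50 times. RPKM is relative to the mapped reads of a library, so fewer cells holding an RNA and less of that RNA per cell cannot be told apart.

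Rn45s fell from input to IP while the other RNAs lay higher in IPs, in the line without bait as in both tagged lines. Cells with the empty vector had an Rn45s RPKM of 7941 before purification, against 4733 in IP 1 and 5149 in IP 2. WT cells started at 7383 and gave 6121 and 3692, and F266A cells started at 8999 and gave 6090 and 4775. Every IP was thus below every input, and the WT IPs were the highest and the lowest of the 6.

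Rpph1 was listed at 281 RPKM in empty vector input RNA, and its IPs 1 and 2 gave 586 and 658. In the same order, the WT line gave 313, 720 and 671, and the F266A line 295, 856 and 744. Inputs and IPs did not overlap. How many other genes separate in this way was not counted. In each IP 85.5% to 96.3% of the genes tested below lay above the input of the same line.

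For Rmrp, empty vector RNA had 103 RPKM as input, and purification gave 178 and 200. The WT line gave 88.1, 182 and 201, and the F266A line 88.6, 175 and 157. Again no IP reached down to an input.

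Terc was the least abundant, with 18.0 RPKM for empty vector input, 22.4 for IP 1 and 27.2 for IP 2. The WT line gave 15.5, 29.5 and 16.6, and the F266A line 16.1, 27.8 and 20.0. Each Terc IP was above its own input, but WT IP 2, at 16.6, was below the empty vector input, so inputs and IPs overlapped. Across the 3 lines the single inputs spanned a 1.22-fold range for Rn45s, 1.12-fold for Rpph1, 1.17-fold for Rmrp and 1.16-fold for Terc, with no replicate against which to test it. The 6 IPs spanned 1.66-fold for Rn45s, 1.46-fold for Rpph1, 1.28-fold for Rmrp and 1.78-fold for Terc.

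**Figure D1:**
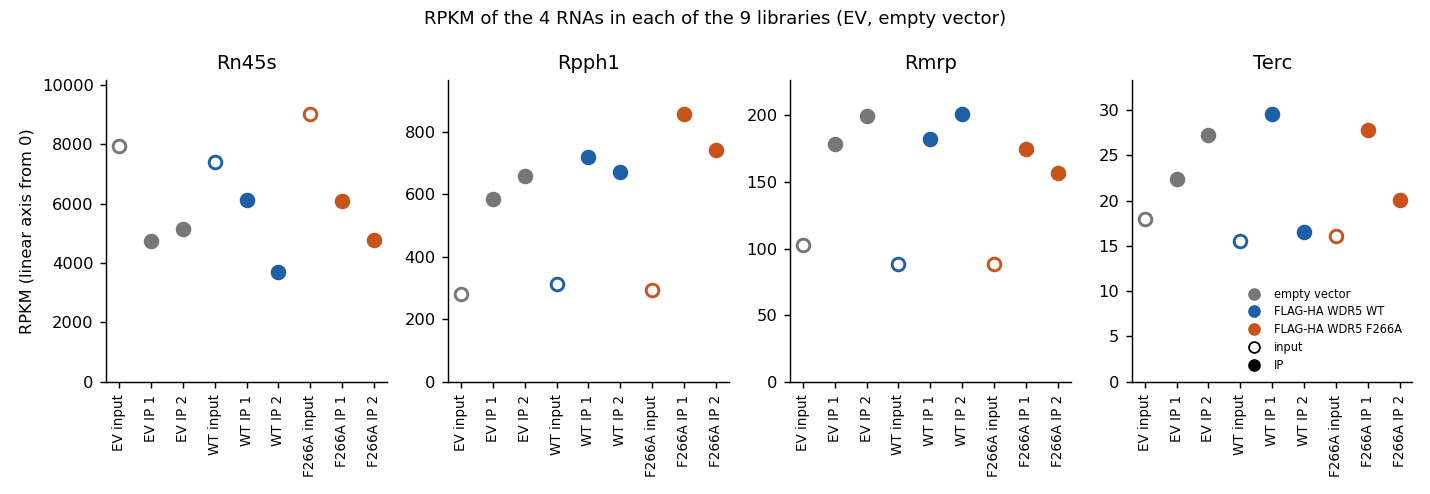
RPKM of Rn45s, Rpph1, Rmrp and Terc (4 panels, linear axes from 0) in each of the 9 libraries, with inputs as open circles and IPs as filled circles, coloured by line. Inputs lie above all IPs for Rn45s and below all IPs for Rpph1 and Rmrp, whereas for Terc the WT IP 2 value of 16.6 falls among the inputs.

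IPs were compared with inputs by limma on log2(RPKM + 1), with the line as a second term, over the 9787 genes that reached 1 RPKM in 2 or more libraries, with p-values adjusted after Benjamini-Hochberg. The difference for Rn45s was -0.69 ± 0.14 (SE; n = 6 IPs and 3 inputs; adjusted p = 0.00275), or 0.621 times the input level, and it was lower in 6 of 6 IPs. That call was lost in limma when all genes above 0 were tested (-0.69, adjusted p = 0.409). Rpph1 rose by 1.24 ± 0.087 (SE; adjusted p = 4.67e-05), or 2.36-fold. Rmrp rose by 0.96 ± 0.083 (SE; adjusted p = 0.00012), or 1.94-fold, and Terc by 0.48 ± 0.16 (SE; adjusted p = 0.0266), or 1.40-fold. These values are read against a general shift: 64.3% of all tested genes were called, 63.8% as higher in IPs and 0.511% as lower, and the median difference over the tested genes was 0.30. That 3 of the 4 RNAs were called higher is therefore close to the background, and sizes are also given relative to the median gene.

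Relative to the median gene, Rn45s was lower by 0.98 on the log2 scale, and Rpph1, Rmrp and Terc were higher by 0.94, 0.66 and 0.19. Of the tested genes, 99.96% had a higher difference than Rn45s. Only Mir5109, Snora47 and Mir1940 were lower still. How reads of repeated ribosomal sequence were shared between rows is not given in the sources used here, and whether the Mir5109 row holds such reads was not tested. For Rpph1, 0.266% of genes had a higher difference, for Rmrp 0.817% and for Terc 17.5%.

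When each library was centred on its median gene, a share of 4.67% of the genes was called higher and 4.32% lower. Rpph1 (0.93 ± 0.083, SE, adjusted p = 0.000717), Rmrp (0.65 ± 0.086, adjusted p = 0.00507) and Rn45s (-0.996 ± 0.15, adjusted p = 0.00847) were among those called by limma. Terc was not, with a difference of 0.17 ± 0.17 (adjusted p = 0.523). Its value was above its own input in 6 of 6 IPs before centring, but above the median gene of the library in 4 of 6, the exceptions being WT IP 2 and F266A IP 2. Without F266A IP 1 the uncentred differences were -0.73 for Rn45s (adjusted p = 0.0028), 1.20 for Rpph1 (adjusted p = 5.85e-05, limma), 0.94 for Rmrp (adjusted p = 0.000177) and 0.42 for Terc (adjusted p = 0.0429). Centred and without that library they were -1.03 (adjusted p = 0.00891), 0.897 (adjusted p = 0.000904), 0.64 (adjusted p = 0.00635) and 0.12 (adjusted p = 0.659, limma) in the same order. The call for Terc was lost without empty vector IP 2 (0.45, adjusted p = 0.054), and over the alternatives its adjusted p ranged from 0.00424 to 0.968.

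**Figure D2:**
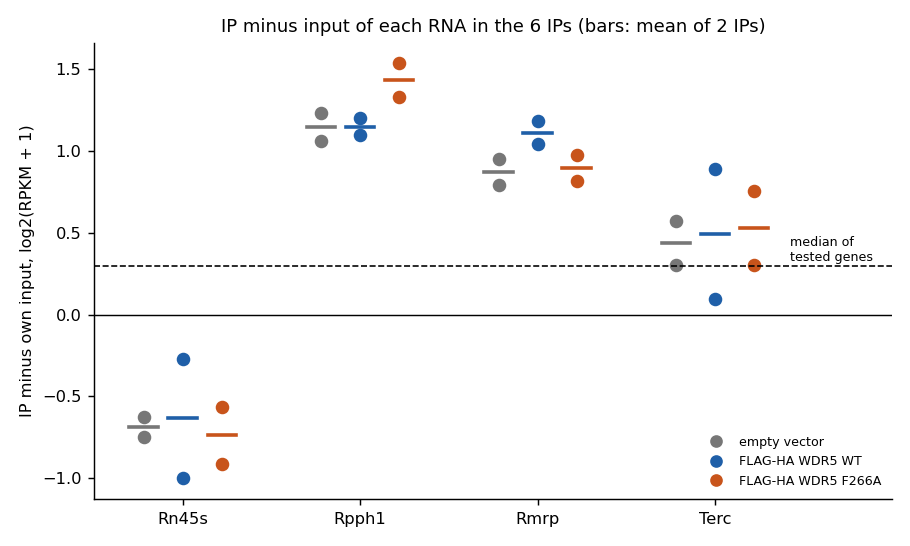
IP minus own input on the log2(RPKM + 1) scale for the 4 RNAs, 1 point for each of the 6 IPs and a bar for the mean of the 2 IPs of a line, with the dashed line at the median difference of all tested genes, 0.30. All 6 values of Rn45s are negative, all values of Rpph1 and Rmrp lie above 0.79, and 1 of the 6 values of Terc lies below the dashed line.

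The comparison of lines asks whether tagged WDR5, and its RNA-binding residue, change what is recovered. For this the input of a line was subtracted from each of its IPs. The score of Rn45s was -0.69 ± 0.086 (SD, n = 2) in the empty vector line, -0.64 ± 0.52 in WT and -0.74 ± 0.25 in F266A. The score of Rpph1 was 1.14 ± 0.12, 1.15 ± 0.072 and 1.43 ± 0.14 in the same order. All 3 lines thus gave Rn45s a negative and Rpph1 a positive score, the line without bait included.

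Rmrp scored 0.87 ± 0.11 in the empty vector line, 1.11 ± 0.098 in WT and 0.89 ± 0.11 in F266A (SD, n = 2). Terc scored 0.44 ± 0.19, 0.49 ± 0.56 and 0.53 ± 0.32. The lowest WT value of Rmrp, 1.04, was just above the highest value of the other lines, 0.97 in F266A IP 1. For Terc the WT values, 0.89 and 0.09, were the highest and the lowest of all 6.

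No member passed the input-corrected limma test between lines at an adjusted p under 0.05, and none of the 9787 genes did, a called share of 0%. At an unadjusted p under 0.05 there were 259 genes for WT minus F266A, 173 for WT minus empty vector and 243 for F266A minus empty vector, and limma without a variance trend also called 0 genes. For WT minus F266A the difference of scores was 0.10 for Rn45s (95% interval -0.89 to 1.09), -0.28 for Rpph1 (-0.88 to 0.31), 0.22 for Rmrp (-0.34 to 0.78) and -0.04 for Terc (-1.09 to 1.01), each with an adjusted p of 0.9998. For WT minus empty vector it was 0.05 for Rn45s (-0.94 to 1.04), 0.0045 for Rpph1 (-0.59 to 0.60), 0.24 for Rmrp (-0.32 to 0.80) and 0.05 for Terc (-0.99 to 1.102). For Rn45s and Terc the intervals reach beyond the size of their own IP minus input difference, and for Rpph1 and Rmrp they end short of it.

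Between both control lines, F266A minus empty vector, the difference was -0.05 for Rn45s (95% interval -1.04 to 0.94), 0.29 for Rpph1 (-0.30 to 0.88), 0.02 for Rmrp (-0.54 to 0.58) and 0.09 for Terc (-0.95 to 1.14). Without F266A IP 1 the values were -0.23, 0.19, -0.06 and -0.13, and WT minus F266A became 0.28, -0.18, 0.30 and 0.19, so that Terc changed sign in both comparisons and Rmrp in the first. The comparisons share the libraries of their common line and are not independent of each other.

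The IPs were also set against each other without inputs, since each input was measured once. By mean RPKM, Rpph1 then fell into the order F266A (800 ± 79.7, SD, n = 2), WT (695 ± 34.8) and empty vector (622 ± 51.4). F266A minus empty vector was 0.36 ± 0.15 for Rpph1 (SE, limma, adjusted p = 0.231), in a comparison in which 4.57% of the genes were called. Of the members, none was called there. In an alternative chosen after seeing the data, without F266A IP 1, the remaining F266A value of 744 was still the highest, and F266A minus empty vector was 0.26 ± 0.19 for Rpph1 (SE, limma, adjusted p = 0.471). The mean of Rmrp was lower in F266A IPs (166 ± 12.9) than in WT IPs (191 ± 13.1) or empty vector IPs (189 ± 15.03). WT minus F266A was 0.21 ± 0.14 for Rmrp (SE, limma, adjusted p = 0.557), where 1.16% of the genes were called. Without F266A IP 1 that difference was 0.29 ± 0.17 (SE, limma, adjusted p = 0.439). The IP levels of Rn45s and Terc overlapped between all 3 lines.

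By the study's own rule an RNA counts as enriched when both WT scores are positive and above all 4 scores of the control lines. The rule has no error term, and 1157 of 24132 rows met it here (4.79%). The scores used here were on the log2(RPKM + 1) scale for the deposited RefSeq rows. The paper's own count was made over a wider transcriptome, with UCSC genes and predicted transcripts, and is not this number. Rmrp met it, by a margin of 0.07 on the log2 scale, which is smaller than the SD of its 2 WT scores, 0.098. Rn45s, Rpph1 and Terc missed it, with margins of -0.44, -0.44 and -0.66. The margin of Rmrp rests on the inputs: when the mean of the 3 inputs replaced the input of each line, it was -0.13 and Rmrp no longer met the rule. Without WT IP 2 the margins were 0.13 for Terc, 0.29 for Rn45s and -0.33 for Rpph1. Terc then met the rule, as did 13.4% of all rows. Rn45s did not, because its WT score was negative (-0.27). Control IPs were also left out in turn, an alternative chosen after seeing the data. Without F266A IP 1, the library that set the highest control score of all 4 RNAs, 1977 rows met the rule, and the margins were 0.09 for Rmrp, -0.37 for Rn45s, -0.23 for Rpph1 and -0.48 for Terc. Leaving out any other control IP left the 4 margins as they were.

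The relatives of Rpph1 followed it from input to IP at far lower levels. Rprl3, named below among the genes most like Rpph1, rose from 17.9 to 21.8 RPKM in inputs to 41.9 to 61.2 in IPs, a difference of 1.39 ± 0.088 (SE, limma, adjusted p = 3.11e-05), and it stood at 6.37% to 8.37% of the Rpph1 level in each library. Rprl2, included after its values were seen, rose from 3.29 to 4.28 RPKM in inputs to 7.02 to 11.5 in IPs (1.17 ± 0.10, SE, adjusted p = 0.000106). Rprl1, likewise included afterwards, stayed at 0.329 to 1.36 RPKM and was too low to be tested. Because part of the reads of this family differ by 2 mismatches or fewer, how far the relatives report RNA of their own was not tested.

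**Figure D3:**
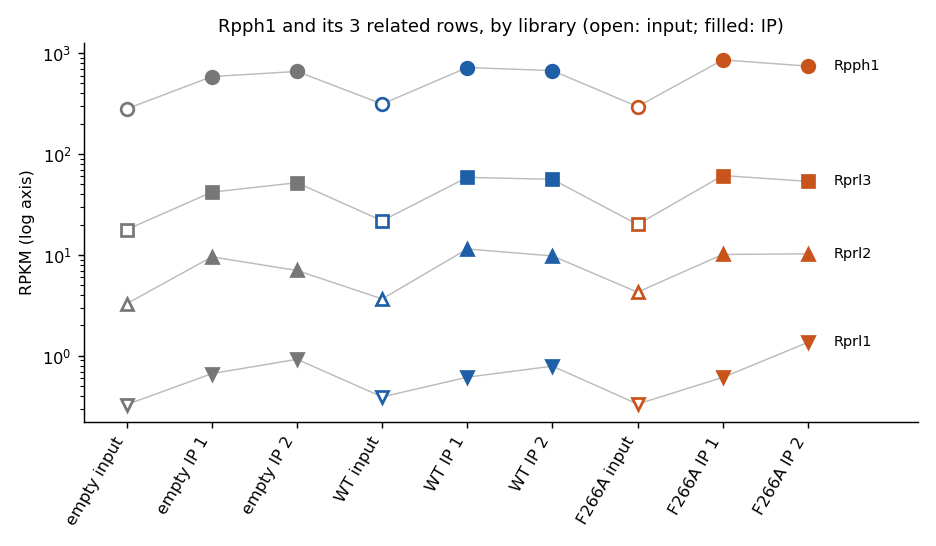
RPKM of Rpph1, Rprl3, Rprl2 and Rprl1 on a log axis in each of the 9 libraries, with inputs open and IPs filled, coloured by line; grey lines only join the values of 1 gene. Each of the genes is lower in the 3 inputs than in the 6 IPs, and Rprl3 stays at 6.37% to 8.37% of Rpph1.

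The genes whose log2(RPKM + 1) was most like each member over the 9 libraries were found by Pearson's r, which mainly follows the contrast of 3 inputs with 6 IPs and is given as a description. For Rn45s these were Lars2, which encodes the mitochondrial leucyl transfer RNA synthetase (r = 0.97), Mir5109 (0.82) and Gm16516 (0.78). Lars2 is listed at 2338 to 2836 RPKM in inputs and 1450 to 2140 in IPs, and Mir5109 at 2209 to 2483 and 912 to 1233, so both are also among the most abundant rows. Whether the Lars2 and Mir5109 rows hold ribosomal RNA reads was not tested. The RPKM of Rn45s was 3.16 to 3.30 times that of Lars2 in inputs and 2.53 to 3.23 times in IPs.

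For Rpph1 the most similar genes were Pafah1b1 (r = 0.99), Rprl3 (0.99) and Agap3 (0.99), and for Rmrp they were Fmnl3, Cdc40 and Snx12 (each 0.99). For Terc they were Mpc2, Dancr and 2010204K13Rik (each 0.97). Dancr, a long noncoding RNA that hosts small RNAs, was listed at 1.34 to 1.66 RPKM in inputs and at 2.95, 3.39, 4.44, 1.55, 3.95 and 2.68 in the empty vector, WT and F266A IPs in turn. As for Terc, the lowest IP value was in WT IP 2 and the highest in WT IP 1.

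Among the IPs alone, Terc and Rn45s, the pair of members with the highest r there, moved together although they moved apart from input to IP. In each of the 3 lines the IP with more Rn45s also had more Terc. Over the 6 IPs Pearson's r was 0.94 and Spearman's rho 0.94, and r was 0.80 over the 4 IPs left without both WT libraries, which lie farthest from the median of Rn45s. Without F266A IP 1 it was 0.94 over the remaining 5. The points are pairs from 3 lines and share the line of each pair. How many of all tested genes follow Rn45s as closely over the IPs was not counted. Dancr and 2010204K13Rik, named above for Terc, were likewise highest in WT IP 1 and lowest in WT IP 2 among the IPs. Terc had 148 to 366 reads per library, which gives a counting error of at most 8.22% that covers the sampling of reads only and not library preparation.

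Rn4.5s, another small RNA row of the table, was also highest in F266A IP 1 (59.6 RPKM) and WT IP 1 (58.7), against 14.2 to 29.5 in the other 4 IPs and 7.65 to 14.0 in inputs. Its r was 0.77 with Rn45s and 0.55 with Terc over the 6 IPs, and 0.67 and 0.44 without F266A IP 1. For Rpph1 and Rmrp, r with Rn45s over the same IPs was 0.53 and -0.31, and r with Terc was 0.31 and -0.02. Between Rpph1 and Rmrp it was -0.40. The part of library preparation in the pattern was not tested.

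**Figure D4:**
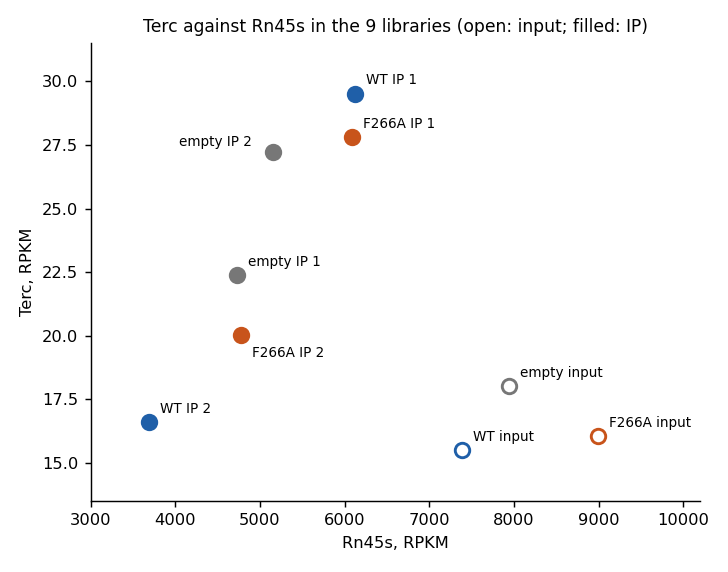
RPKM of Terc against RPKM of Rn45s in the 9 libraries, with inputs open and IPs filled, coloured by line. The 6 IPs run from WT IP 2 (3692 and 16.6) to WT IP 1 (6121 and 29.5), while the 3 inputs lie apart at high Rn45s and low Terc.

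The messenger RNAs of proteins that work with these RNAs mostly rose from input to IP, as did 63.8% of all tested genes. Of 11 genes for RNase P and MRP proteins, 10 rose and 1 did not pass, with a median difference of 0.43 against 0.30 over all tested genes. Rpp25, which encodes an RNA-binding subunit shared by both enzymes, rose from a mean of 16.6 RPKM in inputs to 34.9 in IPs (1.001 ± 0.091, SE, limma, adjusted p = 0.000128), and Pop4 by 0.64 ± 0.066 (adjusted p = 0.000223). After centring, these were the 2 genes of the list that passed, where 4.67% of all genes were called higher and 4.32% lower. Pop1, Pop5 and Rpp21 rose by 0.35, 0.47 and 0.42.

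Of 16 genes for telomerase proteins and assembly factors 15 were tested, and 14 rose, with a median difference of 0.42, against 63.8% and 0.30 for all tested genes. Tert, the catalytic subunit, named after its values were seen, was at a mean of 1.44 RPKM in inputs and 1.81 in IPs (0.19 ± 0.11, SE, adjusted p = 0.159). Dkc1 and Nop10, which belong to the core that binds the 3′ end of Terc, rose by 0.52 and 0.55, and Ruvbl2, an assembly factor, by 0.53. None of the 15 passed after centring.

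All 27 tested genes of RNA polymerase I and ribosomal RNA processing rose, beside 63.8% of all tested genes, with a median difference of 0.39. After centring 3 of them passed, where 4.67% of all genes were called higher. Npm1 and Ncl, abundant nucleolar proteins, rose by 0.66 ± 0.093 and 0.52 ± 0.082 (SE), and Nop56, of the box C/D particle, by 0.88 ± 0.095. Taf1d, a subunit of the polymerase I initiation factor, rose by 0.96 ± 0.10, the highest value of the list. None of these messenger RNAs moved down with the Rn45s row, which was not tested for reads of mature ribosomal RNA.

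Small nucleolar and Cajal body RNAs, which guide the modification of ribosomal and spliceosomal RNAs, included genes both above Rpph1 and below Rn45s. The added 1 understates the differences of low genes, and many of these RNAs are low. Of 46 tested box C/D genes 15 rose and 1 fell, with a median difference of 0.42 and a range of -0.68 to 1.38. Of 37 tested box H/ACA and Cajal body genes 21 rose and 1 fell, with a median of 0.55 and a range of -0.85 to 2.08. Among all tested genes 63.8% rose, 0.511% fell and the median was 0.30. After centring 7 of the box C/D genes passed, each of them higher, and 6 of the box H/ACA and Cajal body genes were higher and 1 lower, where 4.67% of all genes were called higher and 4.32% lower. In an alternative chosen after seeing the data, a pseudocount of 10, the median of the box C/D list was 0.07 and that of all tested genes 0.09. Scarna9 (mean 51.5 RPKM) and Snora52 (30.2), the 2 most abundant of them, rose by 1.05 ± 0.085 and 0.98 ± 0.12, Snora23 by 2.08 ± 0.15 and Scarna13 by 1.52 ± 0.084 (SE). In the box C/D list Snord49b, Snord43 and Snord83b, its 3 most abundant genes, rose by 1.02, 1.36 and 1.38. Snord104, next in abundance, rose by 0.78, and Snord17 after it did not pass (0.23, limma, adjusted p = 0.165). Of 4 other structural RNA rows that were tested, Rn4.5s rose by 1.32 ± 0.34 (SE, limma, adjusted p = 0.00859) and 3 did not pass. Its call was lost after centring (1.01, adjusted p = 0.103), and without F266A IP 1 its difference was 1.17 (adjusted p = 0.0137) and, centred, 0.87 (adjusted p = 0.134). Without F266A IP 1, 66.8% of all genes were called higher and 0.593% lower by limma, and 6.04% and 5.37% after centring. In that setting 9 of 11, 15 of 15 and 27 of 27 genes of the protein lists rose, with 2, 1 and 4 higher after centring. Of the box C/D genes 15 rose and 2 fell, with 7 higher and 2 lower after centring, and of the box H/ACA and Cajal body genes 21 rose and 1 fell, with 6 higher and 1 lower after centring. Among genes called in the lists with all libraries, Snora47 is the 1 that lay below Rn45s.

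**Figure D5:**
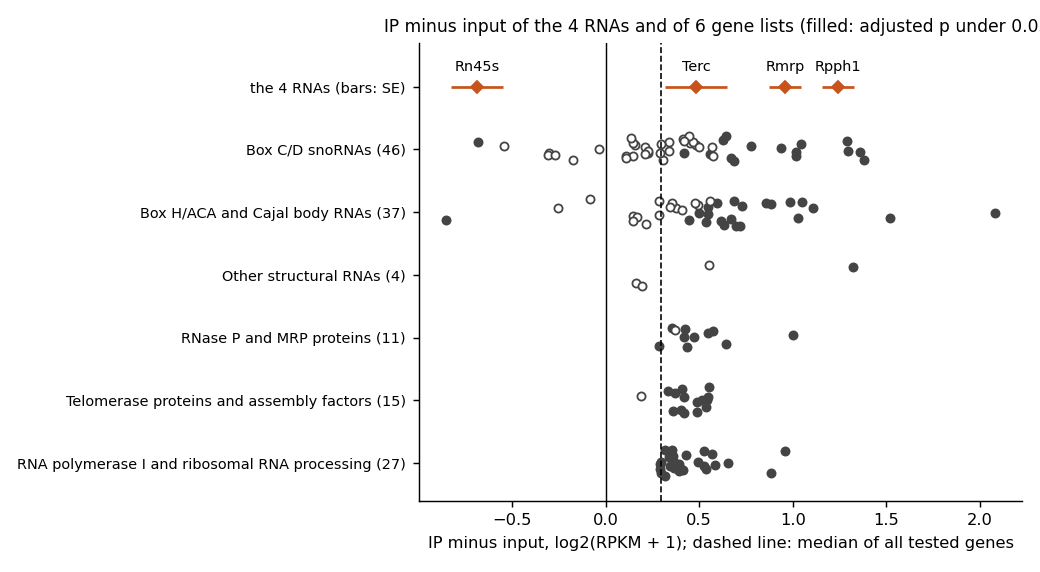
IP minus input on the log2(RPKM + 1) scale for the 4 RNAs (diamonds, bars: SE) and for the tested genes of 6 lists (1 point per gene, filled where the adjusted p was under 0.05, number of genes in brackets), with the dashed line at the median of all tested genes, 0.30. The medians of the 3 lists of partner proteins are 0.43, 0.42 and 0.39, whereas Rn45s lies at -0.69 and Rpph1 at 1.24.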

How the data were processed

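RIPiT-seq data of 9 libraries were analysed, 1 input and 2 IPs for each of 3 lines. The authors amplified RNA with the NuGEN Ovation v2 kit, sequenced 50-base single reads and used TopHat 1.1.3 for alignment to mm9. The deposited table holds their RPKM values per collapsed RefSeq gene, computed from genome coverage. No read counts were used. Mapped reads per library were recovered as the numbers for which rows of small RNAs gave whole base coverage at 51 bases per read (95.2% to 96.2% of rows within 0.01), and counting error refers to coverage divided by 51.

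RPKM values were tested as log2(RPKM + 1) with limma 3.58.1 in R 4.3.3 (lmFit, eBayes with trend) over 9787 of 24132 genes. Adding 1 understates changes of low genes. IP minus input was fitted with line and fraction as terms, and the other comparisons with 1 coefficient per line and fraction. The members, gene lists and markers were chosen with earlier results of these data known. Named genes were the members, the 3 genes most like each by Pearson's r, and up to 5 genes per list with the highest mean RPKM or a passed test; exceptions are marked where they are named. Sequences and models came from the mm9 genome and GENCODE M1, matched through flanking genes in the RefSeq table of GRCm38.p6. The limma fit was tried on simulated data for IP minus input and for WT minus F266A only. Alternatives covered the pseudocount, filter, scaling, variance trend, replicate block, inputs and each IP left out.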

Additional observations from a re-analysis of the deposited data

How the results depend on the processing

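The IP minus input differences of Rpph1 and Rmrp passed under all 17 alternatives (0.74 to 1.27 and 0.53 to 0.99), and Rn45s passed under 15. Rn45s lost its call when all genes above 0 were tested (-0.69, adjusted p = 0.409; the cause was not tested) and under quantile normalization, where it is 0 by construction, since the top row of every library gets 1 value. Terc lost its call with all genes above 0 (0.48, adjusted p = 0.091), centring (0.17, and 0.12 also without F266A IP 1), quantile normalization (0.015), and 1 coefficient per line and fraction (0.48, adjusted p = 0.0531). Leaving out each IP gave -0.79 to -0.59 for Rn45s, 1.20 to 1.27 for Rpph1, 0.92 to 0.99 for Rmrp and 0.38 to 0.59 for Terc. Genes called fell from 6297 to 880 after centring (1117 also without F266A IP 1) and to 616 after quantile normalization. The rescaling that left out the reads on Rn45s took its row as 5833 bases long.

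Between lines no member passed under any alternative, and 8 of the 12 differences changed sign under at least 1 alternative. The 4 that kept their sign were Rmrp for WT minus F266A (0.13 to 0.32) and WT minus empty vector (0.019 to 0.32) and Rpph1 for WT minus F266A (-0.39 to -0.097) and F266A minus empty vector (0.17 to 0.39). For WT minus F266A, Terc was 0.062 after centring and 0.079 after quantile normalization, and Rn45s was -0.18 from IPs without inputs; leaving out an IP gave -0.26 to 0.47 for Rn45s and -0.44 to 0.36 for Terc. For WT minus empty vector, Rpph1 was -0.0083 after centring, and Rn45s and Terc were -0.054 and -0.15 without inputs; leaving out an IP gave -0.31 to 0.42, -0.080 to 0.089 and -0.34 to 0.45 for Rn45s, Rpph1 and Terc. For F266A minus empty vector, Rmrp and Terc were -0.093 and -0.021 after centring, Terc -0.016 after quantile normalization, and Rn45s, Rmrp and Terc 0.13, -0.19 and -0.062 without inputs; leaving out an IP gave -0.23 to 0.12, -0.059 to 0.10 and -0.13 to 0.32. Counts of genes called rose from 0 to 33, 45 and 22 in the 3 comparisons with all genes above 0, to 88 for F266A minus empty vector with a pseudocount of 0.1, to 114 and 447 without inputs for WT minus F266A and F266A minus empty vector (193 and 471 also without F266A IP 1), and over the IPs left out to between 0 and 2 for WT minus F266A.

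The study's rule was met by 723 rows after centring and by 3238 to 3354 with 1 WT IP. Among alternatives chosen after seeing the data, it was met by 1426 to 1977 rows without 1 control IP. The margin of Rmrp was -0.13 with the mean of the 3 inputs and 0.069 to 0.21 with any IP left out. IPs without inputs, and also without F266A IP 1, gave -0.0063 for Rn45s and 0.14 for Terc in WT minus F266A, and -0.27 and -0.29 for Rmrp and Terc in F266A minus empty vector. With a pseudocount of 10 the box C/D and H/ACA lists had medians 0.013 below and 0.054 above that of all tested genes, against 0.12 and 0.25 above.

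Same-numbered IPs of different lines deviated together only in part (correlations of 0.26, 0.11 and 0.01), so the numbers were not taken as pairs. With a replicate block 6550 genes were called for IP minus input and 0 in each comparison of lines, and no call of a member changed. Single inputs and 2 IPs per line limit every comparison of lines, and Terc is also limited by its 148 to 366 reads.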
